A study of Rattus norvegicus with 6 samples.

Results

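The genes described here are 33 genes of cholesterol synthesis, uptake and storage, chosen by their symbols from the 35291 genes in the table of testicular gene expression. They fall into 18 enzymes of synthesis, 5 regulators of the sterol-sensing SREBP pathway, 1 receptor for lipoprotein uptake (Scarb1), and 9 genes of cholesteryl ester storage, intracellular transport and efflux. RNA-Seq of testicular tissue was performed in 3 diabetic rats and 3 non-diabetic controls, all of the outbred Sprague-Dawley strain. Per the methods, a high-fat diet was fed to the diabetic rats for 1 month, followed by a single injection of streptozotocin (STZ), a compound toxic to pancreatic beta cells, at 35 mg/kg. Only rats with persistently high blood glucose were kept, and RNA was taken 8 weeks after the injection. The controls were injected with citrate buffer, and their diet is not given in the sources used here, so STZ and diet cannot be told apart. The labels number the libraries 1 to 3 in each group without saying that each is a single animal, so p-values measure the spread between these libraries, called rats below.

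Cells make cholesterol from acetyl-CoA through mevalonate, farnesyl diphosphate, squalene and lanosterol, and the genes of this route are controlled by SREBP transcription factors, which are released from the endoplasmic reticulum when sterols are scarce. Cholesterol can also be taken up from lipoproteins, stored as esters in lipid droplets, freed again by lipases and exported by ABC transporters. In the testis, Leydig cells turn cholesterol into testosterone, while germ cells need sterols for their membranes and accumulate intermediates of synthesis that act on meiosis.

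Values are FPKM, fragments per kilobase of transcript, which are scaled by transcript length and library size and so can be compared between genes. The comparison used limma on log2(FPKM + 0.1) for the 20338 genes whose mean reached 0.5 FPKM, and p-values were adjusted by the Benjamini-Hochberg method over all of them. A log2 fold change is diabetic minus non-diabetic, and understates the change of genes with low FPKM. All 33 genes passed the filter, and none was at 0 in any rat. With 3 rats a group, the exact permutation test cannot give a p-value below 0.1. The FPKM of a rat summed to between 453304 and 478211 over the table, with overlapping groups, and the number of reads behind a value cannot be read from FPKM.

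As for the tissue, markers of spermatids summed to 13079 to 15183 FPKM over the 6 rats, and those of spermatocytes to 791 to 866 FPKM. None of the 8 spermatocyte and 9 spermatid markers differed between groups at an unadjusted p-value below 0.05. The same was true of the 8 Sertoli cell markers tested (266 to 334 FPKM for all 10 listed) and the 5 peritubular muscle markers (72.8 to 94.3 FPKM). Of 6 spermatogonium markers (78.4 to 91.8 FPKM), 1 was lower (Kit) and 1 was higher (Uchl1), and of 4 endothelial markers (6.38 to 8.69 FPKM), 1 was higher (Flt1). Leydig cell markers summed to 45.9 to 77.9 FPKM in diabetes and 108 to 142 FPKM in the controls, 8 of the 9 tested were lower at an unadjusted p-value below 0.05, and none was at 0. Of all genes tested, 4.99% were lower and 2.47% higher at an unadjusted p-value below 0.05. In bulk tissue, fewer cells of a type and less RNA per cell cannot be told apart.

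Scarb1 differed most among the 33 genes, and had 50.4% less RNA in the diabetic testis. Smaller differences at an unadjusted p-value below 0.05 were seen for Abca1, Lipa and Dhcr7, which were lower in the diabetic rats, and Mvd, which was higher. In the other 28 genes no difference passed that threshold, and no gene of the 33 reached an adjusted p-value below 0.05 with limma. The 4 lower genes were 12.1% of the 33, against 4.99% of all genes tested that were lower at this threshold. The 1 higher gene was 3.03% of them, against 2.47% of all genes. All genes tested include many that are not protein-coding. With limma on protein-coding genes only, 1088 of 12242 genes passed this threshold in either direction, against 1517 of the 20338. Of the 33, 5 were then lower and 1 was higher. The 33 were chosen with earlier results of these data known, so the shares are descriptions. By the study's criterion, a log2 fold change of at least 1 in either direction with an unadjusted p-value below 0.05, 0 of the 33 were called, against 1.24% of all genes. The study screened transcripts with DESeq2, whereas here the criterion was applied to genes in limma. The 0 depended on the pseudocount, since Scarb1 was at -0.996 with 0.1, -1.012 with 0.01 and -0.864 with 1. Of all genes tested, 0.0344% had an adjusted p-value below 0.05. All values of a group lay outside the range of the other in 8 of the 33 genes. Of these, 5 were lower in the diabetic rats, which is 15.2% against 8.42% of all genes, and 3 were higher, which is 9.09% against 4.56%. The median log2 fold change was -0.075 over the 33 genes and -0.065 without Scarb1, against -0.021 over all genes tested. The log2 fold change lay between -0.5 and 0.5 in 30 genes, and its 95% confidence interval lay within -1 and 1 in 29.

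**Figure D1:**
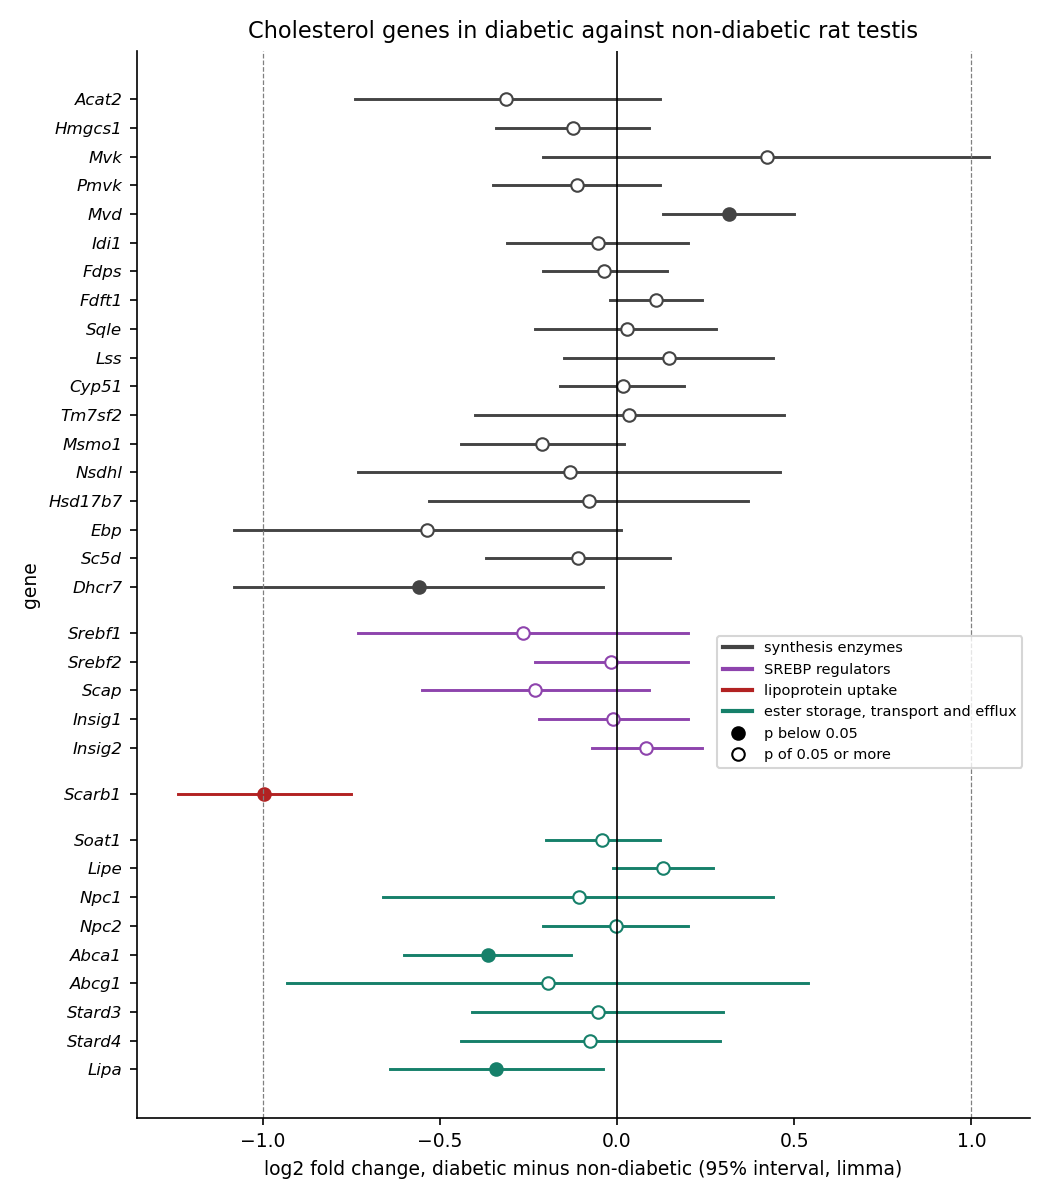
Log2 fold change of each of the 33 genes (diabetic minus non-diabetic, x axis) with its 95% interval from limma, by sub-group, with filled points for unadjusted p-values below 0.05 and dashed lines at -1 and 1. Scarb1 lies at -0.996 and apart from the others, of which Dhcr7 is the lowest at -0.56 and Mvk the highest at 0.42.

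Enzymes of the early part of synthesis, from acetyl-CoA to squalene, are coded by 8 of the genes. They include those with the most RNA in both groups, and only Mvd differed at an unadjusted p-value below 0.05. Mvd (ENSRNOG00000013376) decarboxylates mevalonate diphosphate to isopentenyl diphosphate, the building block of all isoprenoids. It measured 9.75, 10.2 and 9.23 FPKM in diabetes and 7.72, 7.82 and 7.83 FPKM in the controls. All 3 diabetic rats were higher and the groups did not overlap. The means were 9.73 ± 0.482 and 7.79 ± 0.060 FPKM (SD, n = 3 each), or 24.9% higher in diabetes. This gave a log2 fold change of 0.32 (SE 0.08, 95% interval 0.13 to 0.50), with an unadjusted p-value of 0.00470 and an adjusted p-value of 0.429 in limma. It stayed between 0.28 and 0.35, with an unadjusted p-value below 0.05, whichever rat was left out.

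Fdft1, or squalene synthase (ENSRNOG00000021314), makes the first step committed to sterols. The diabetic rats had 94.5, 95.4 and 89.2 FPKM and the controls 86.1, 88.1 and 84.4 FPKM. These groups did not overlap either, but lay close together, with means of 93.1 ± 3.35 and 86.2 ± 1.83 FPKM (SD, n = 3 each) and a difference of 8.0%. The log2 fold change of 0.11 (95% interval -0.02 to 0.24) had an adjusted p-value of 0.729. Fdps (ENSRNOG00000043377), which makes farnesyl diphosphate for sterols and for protein prenylation, was the most abundant of the 33 genes. Diabetic rats had 105, 91.5 and 100 FPKM of it, and controls 101, 108 and 94.6 FPKM. The groups overlapped throughout, with a log2 fold change of -0.04 (95% interval -0.21 to 0.14).

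The remaining 5 early enzymes had overlapping groups. Acat2, which joins acetyl-CoA units in the cytosol, had a log2 fold change of -0.31, and Hmgcs1, which makes HMG-CoA, of -0.12. Pmvk, which adds the phosphate after Mvk, was at -0.11, and Idi1, which isomerizes isopentenyl diphosphate, at -0.05. Mvk, mevalonate kinase, was the most spread of them. It was at 3.57 to 3.75 FPKM in the diabetic rats, whereas the controls had 4.31, 2.21 and 2.05 FPKM. Its log2 fold change of 0.42 had a 95% interval of -0.21 to 1.05 and moved to 0.75 (unadjusted p-value 0.00136 in limma) without control rat 1, the high one.

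The 10 enzymes from squalene to cholesterol had a median log2 fold change of -0.094, compared with -0.045 for the 8 early enzymes. Dhcr7 was the only one below an unadjusted p-value of 0.05. Dhcr7 (ENSRNOG00000020776), the reductase that makes cholesterol in the last step, had 3.46, 3.01 and 3.71 FPKM in the diabetic rats. Controls had 3.82, 7.06 and 4.72 FPKM, so the groups did not overlap, but the gap between diabetic rat 3 and control rat 1 was small and control rat 2 stood high. With means of 3.39 ± 0.353 and 5.20 ± 1.67 FPKM (SD, n = 3 each), Dhcr7 was 34.7% lower in diabetes. Its log2 fold change was -0.56 (SE 0.22, 95% interval -1.08 to -0.04), with an unadjusted p-value of 0.0385 and an adjusted p-value of 0.651 in limma. The unadjusted p-value was below 0.05 in only 1 of the 6 fits that left out a rat, the fit without control rat 1, and the log2 fold change was -0.32 without control rat 2.

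Msmo1 (ENSRNOG00000032297), the oxidase that begins removal of methyl groups from sterols, was at 4.82, 4.35 and 4.90 FPKM in diabetes and at 5.40, 5.61 and 5.33 FPKM in the controls. The diabetic rats were all lower, without overlap. For Msmo1 the log2 fold change was -0.21 (SE 0.10, 95% interval -0.44 to 0.02), with an adjusted p-value of 0.700 in limma. Ebp, a sterol isomerase that acts shortly before Dhcr7, had a log2 fold change of similar size to Dhcr7, -0.54 (95% interval -1.08 to 0.01, unadjusted p-value 0.0520, adjusted p-value 0.671 in limma). Its groups overlapped, since diabetic rat 1 had 1.68 FPKM and control rat 3 had 1.66 FPKM.

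The remaining 7 late enzymes had log2 fold changes between -0.13 and 0.15 and overlapping groups. They were Sqle (0.03) and Lss (0.15), which oxidize squalene and close it to lanosterol, Cyp51 (0.02), the lanosterol demethylase, and Tm7sf2 (0.04), a sterol reductase. Nsdhl (-0.13) and Hsd17b7 (-0.08) act with Msmo1 on the sterol methyl groups, and Sc5d (-0.11) is a sterol desaturase. Precision differed among them, with intervals from -0.16 to 0.19 for Cyp51 to -0.73 to 0.46 for Nsdhl. Summed over the 18 enzymes, the RNA of synthesis was 383 to 407 FPKM in diabetes and 392 to 398 FPKM in the controls. The ranges overlapped, and the median log2 fold change of the 18 was -0.066.

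**Figure D2:**
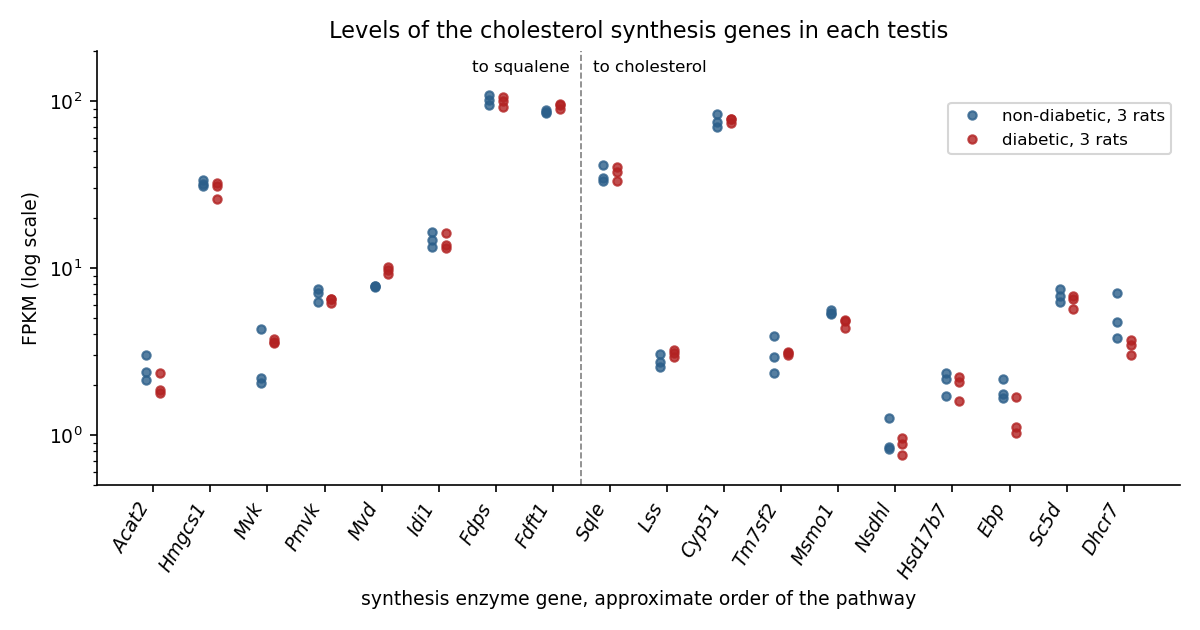
FPKM (log scale, y axis) of the 18 synthesis enzymes in the approximate order of the pathway (x axis), with a point for each of 3 non-diabetic (blue) and 3 diabetic (red) rats and a dashed line at squalene. Fdps, Fdft1 and Cyp51 lie above 50 FPKM in all 6 rats, and 8 enzymes have a mean below 5 FPKM.

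Levels along the route were uneven in both groups, as the plot of enzyme levels shows. Over the 6 rats, Fdps (100 ± 6.19 FPKM), Fdft1 (89.6 ± 4.47 FPKM) and Cyp51 (76.4 ± 4.51 FPKM; SD, n = 6) were the highest enzymes, followed by Sqle (36.7 ± 3.62 FPKM) and Hmgcs1 (31.0 ± 2.64 FPKM). The ranges of Fdps and Fdft1 overlapped, and so did those of Sqle and Hmgcs1, but Cyp51 and Fdft1 did not overlap, nor did Cyp51 and Sqle. At the other end were Nsdhl (0.922 ± 0.176 FPKM), Ebp (1.57 ± 0.429 FPKM) and Hsd17b7 (2.02 ± 0.297 FPKM). Fdps therefore had 111 ± 13.0 times the FPKM of Nsdhl (SD, n = 6, range 86.0 to 123). Cyp51 is flanked by enzymes with much less RNA. It had 26.3 ± 3.31 times the FPKM of Lss, which makes its substrate (range 22.8 to 32.5), and 15.2 ± 1.82 times that of Msmo1 (range 13.0 to 17.9). Both ratios overlapped between the groups. Among all 33 genes in order of mean level, the range of a gene overlapped that of the next in 27 of 32 neighbouring pairs. The breaks came after Cyp51, Npc2, Insig1, Idi1 and Mvd.

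None of the 5 SREBP regulators differed at an unadjusted p-value below 0.05, and all had overlapping groups. Srebf2 (ENSRNOG00000007400), which codes for the SREBP that mainly drives sterol synthesis, measured 11.5, 10.7 and 10.3 FPKM in diabetes and 11.5, 11.4 and 9.98 FPKM in the controls. The values were interleaved, and the log2 fold change of -0.02 had a narrow 95% interval of -0.23 to 0.20. Srebf1 (ENSRNOG00000003463), whose products also act on fatty acid synthesis, measured 2.13, 2.38 and 1.48 FPKM in diabetes and 2.23, 2.47 and 2.44 FPKM in the controls. Diabetic rat 3 was the low value, the others were close together, and the log2 fold change was -0.27 (95% interval -0.73 to 0.20, adjusted p-value 0.843 in limma). The level of Srebf2 was 5.11 ± 1.0 times that of Srebf1 (SD, n = 6, range 4.09 to 6.93).

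Scap, which escorts SREBPs to the Golgi, had a log2 fold change of -0.23 (95% interval -0.55 to 0.09). Insig1 and Insig2, which hold Scap in the endoplasmic reticulum when sterols are plentiful, were at -0.01 and 0.08. Insig1 is itself a target of SREBPs, and its mean was 23.1 ± 2.13 FPKM in diabetes and 23.3 ± 1.57 FPKM in the controls (SD, n = 3 each). The 5 genes summed to 53.5 to 57.2 FPKM in diabetes and 56.1 to 57.1 FPKM in the controls, with a median log2 fold change of -0.016.

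Scarb1 (ENSRNOG00000000981) codes for SR-BI, the receptor that takes up cholesteryl esters from high-density lipoproteins, and is known from Leydig cells, which use it to supply steroid synthesis, and from Sertoli cells. The diabetic rats had 4.44, 3.74 and 4.30 FPKM and the controls 8.64, 8.55 and 7.96 FPKM. Every diabetic rat was far below every control. The means were 4.16 ± 0.373 and 8.38 ± 0.366 FPKM (SD, n = 3 each), which is 50.4% lower in diabetes. On the log2 scale the fold change was -0.996 (SE 0.10, 95% interval -1.24 to -0.75), with an unadjusted p-value of 2.22e-05 and an adjusted p-value of 0.0530 in limma. By p-value it ranked 8 of 20338 genes, and by size it fell just short of the criterion of 1. Leaving out a rat gave -1.04 to -0.92, with unadjusted p-values below 0.05 in all 6 fits and adjusted p-values of 0.107 to 0.208. Other settings put the adjusted p-value between 0.0104, with protein-coding genes only, and 0.243, with a block for the replicate number, so its side of 0.05 depended on the setting.

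**Figure D3:**
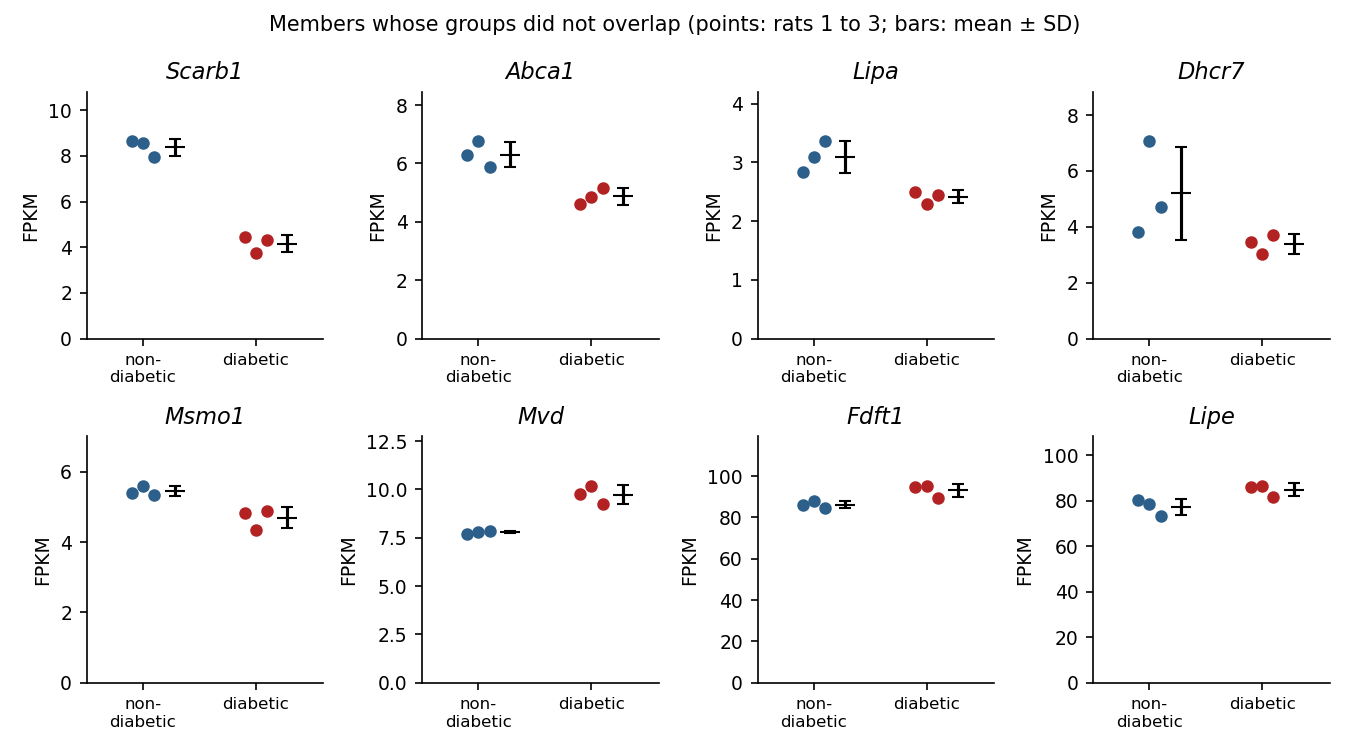
FPKM (y axis, from 0) of the 8 genes whose groups did not overlap, with a point for each rat and the mean ± SD of 3 rats beside them, for non-diabetic (blue) and diabetic (red) rats. Scarb1 shows the widest gap, with diabetic rats at 3.74 to 4.44 FPKM and non-diabetic rats at 7.96 to 8.64 FPKM, and Fdft1 and Lipe show gaps that are small beside their level.

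Of the 9 Leydig cell markers tested, 8 were lower at an unadjusted p-value below 0.05, as Scarb1 was, but by differing amounts. The log2 fold changes of the 9 ran from -1.62 to -0.02, with a median of -1.16. For most of them, each diabetic rat was expressed as a percentage of the non-diabetic mean. Scarb1 was at 44.6% to 53.0%, and Lhcgr, the receptor for luteinizing hormone, at 48.5% to 49.2%. Cyp17a1, an enzyme of androgen synthesis, was at 30.6% to 33.4% and was the only Leydig marker with an adjusted p-value below 0.05 (0.0415 in limma). Star, which carries cholesterol into mitochondria, varied more, from 22.0% to 65.3%, and so did Cyp11a1, which cleaves its side chain, from 27.1% to 65.4%, and Insl3, a Leydig cell hormone, from 19.3% to 70.1%. Pdgfra, a growth factor receptor, was at 62.1% to 75.6%. Nr5a1, a transcription factor of steroidogenic and Sertoli cells, was at 83.2% to 117% and overlapped the non-diabetic rats. The other markers tested were Fdx1, with a mean 17.2% lower in diabetes (log2 fold change -0.28), and Hsd17b3 (-1.26), whose groups overlapped. Their unadjusted p-values in limma stayed below 0.05 in only 1 and 2 of the 6 fits that left out a rat.

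**Figure D4:**
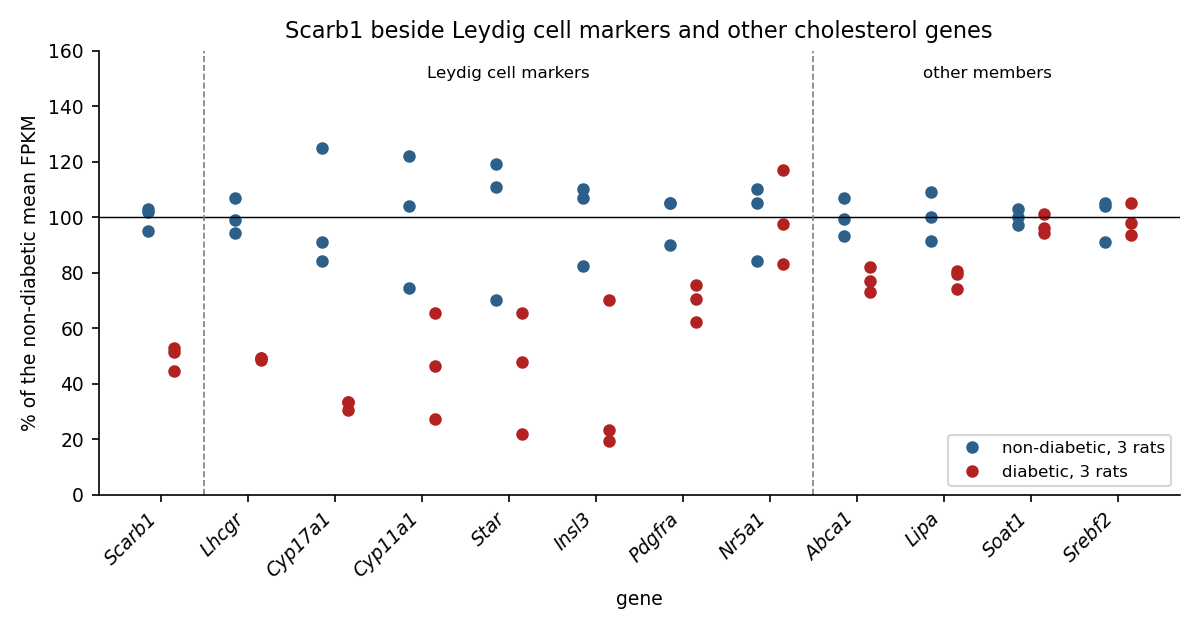
FPKM of each rat as a percentage of the mean of the 3 non-diabetic rats (y axis) for Scarb1, 7 of the 9 Leydig cell markers tested and 4 others of the 33 genes (x axis), with non-diabetic rats in blue and diabetic rats in red. Scarb1 and Lhcgr lie near 50% in all 3 diabetic rats, Cyp17a1 lies lower, and Soat1, Srebf2 and Nr5a1 spread around 100%.

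Ratios to single Leydig markers, chosen after their values were seen, differed in what they showed. Scarb1 was 1.91, 1.61 and 1.88 times Lhcgr in diabetes and 1.94, 1.70 and 1.70 times in the controls. This ratio overlapped between the groups. Relative to Cyp17a1, Scarb1 was higher in the diabetic rats (0.464, 0.423 and 0.446) than in the non-diabetic rats (0.355, 0.237 and 0.303). Relative to Pdgfra it was lower, at 0.846, 0.807 and 0.763 against 1.10, 1.10 and 1.19. How far the lower Leydig signal accounts for the lower Scarb1 was not tested.

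Ester storage was represented by Soat1 and the lipases Lipe and Lipa. Soat1 (ENSRNOG00000004111), the enzyme that esterifies cholesterol for storage, measured 15.3, 16.3 and 15.5 FPKM in diabetes and 16.7, 16.2 and 15.7 FPKM in the controls. The groups overlapped, and the log2 fold change was -0.04 (95% interval -0.20 to 0.12). The ratio of Soat1 to Scarb1 was thus higher in all diabetic rats, at 3.43, 4.37 and 3.61 against 1.93, 1.89 and 1.97. It follows from the lower Scarb1 and is no separate result. Lipe (ENSRNOG00000020546), hormone-sensitive lipase, which frees cholesterol from esters in lipid droplets and was the third most abundant of the 33 genes, had 86.0, 86.6 and 81.4 FPKM in diabetes and 80.3, 78.3 and 73.4 FPKM in the controls. All diabetic rats were higher, by a small margin. Its log2 fold change was 0.13 (SE 0.06, 95% interval -0.01 to 0.27), with an adjusted p-value of 0.690 in limma.

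Lipa (ENSRNOG00000019077), lysosomal acid lipase, which frees cholesterol from lipoproteins that have been taken up, measured 2.50, 2.29 and 2.45 FPKM in diabetes and 2.83, 3.09 and 3.36 FPKM in the controls. The diabetic rats were all lower. The means were 2.41 ± 0.106 and 3.09 ± 0.266 FPKM (SD, n = 3 each), or 21.9% lower in diabetes. Lipa had a log2 fold change of -0.34 (SE 0.13, 95% interval -0.64 to -0.04), with an unadjusted p-value of 0.0307 and an adjusted p-value of 0.633 in limma. Only the fit without control rat 1 kept the unadjusted p-value below 0.05 among the 6 that left out a rat. The neutral and the acid lipase thus lay on opposite sides of 0, though the 95% interval of Lipe included 0. Lipe was 34.5, 37.7 and 33.2 times Lipa in diabetes against 28.4, 25.3 and 21.8 times in the controls. This ratio follows from the values already given and is no separate result.

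Efflux was represented by Abca1 and Abcg1, which pass cholesterol to apolipoproteins and lipoproteins outside the cell. Abca1 (ENSRNOG00000018126) measured 4.60, 4.85 and 5.17 FPKM in diabetes and 6.28, 6.76 and 5.88 FPKM in the controls. The diabetic rats were again all lower. The means were 4.87 ± 0.287 and 6.31 ± 0.438 FPKM (SD, n = 3 each), or 22.8% lower in diabetes. The log2 fold change was -0.37 (SE 0.10, 95% interval -0.60 to -0.13), with an unadjusted p-value of 0.00806 and an adjusted p-value of 0.485 in limma, and lay between -0.41 and -0.32, with an unadjusted p-value below 0.05, in each of the 6 fits without a rat. Abcg1 spread widely in both groups, from 1.09 to 2.22 FPKM, and its log2 fold change of -0.20 had the widest 95% interval of all 33 genes, -0.93 to 0.54. Macrophages use both transporters and Lipa, and 2 of 5 macrophage markers tested were lower in diabetes at an unadjusted p-value below 0.05. They were Cd68 (log2 fold change -0.98, mean 0.778 FPKM) and Csf1r (-0.80). Cd68 stayed below 0.05 in only 2 of the 6 fits that left out a rat, and Csf1r in all 6. Cd163 (-0.23), Mrc1 (-0.06) and Adgre1 (-0.13) had overlapping groups. With the untested Cd14, the 6 markers summed to 25.9 to 31.0 FPKM in diabetes and 30.9 to 32.6 FPKM in the controls, none was at 0, and their part in these results was not tested.

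The transporters within the cell did not differ at an unadjusted p-value below 0.05. Npc1 and Npc2, which together move cholesterol out of lysosomes, had log2 fold changes of -0.11 (95% interval -0.66 to 0.44) and -0.004 (95% interval -0.21 to 0.20). Their levels were far apart, with the soluble Npc2 at 32.9 ± 4.11 times the FPKM of the membrane protein Npc1 (SD, n = 6, range 27.6 to 38.3). Stard3, which transfers sterol from late endosomes, and Stard4, a cytosolic sterol carrier, were at -0.05 and -0.07. Summed over the 9 genes of storage, transport and efflux, the RNA was 142 to 151 FPKM in diabetes and 135 to 150 FPKM in the controls, with a median log2 fold change of -0.075.

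Promoters from RefSeq (assembly GRCr8), which run from 250 bases before to 50 bases after the start of a gene, were matched by symbol to 26 of the 33 genes, with 27 promoters in all. Motifs were searched on both strands. The CCAAT box (CCAAT) was found in 74.1% of these promoters, against 37.5% of all 33469 promoters and 38.0% of the 21851 of protein-coding genes. The GC box (GGGCGG) was in 85.2%, against 33.1% and 41.8%. Among the 15 promoters of synthesis enzymes, 80.0% held the first and 86.7% the second. The E-box CACGTG was in 14.8%, against 6.42% and 7.02%. The letters TCACNCCAC, a form of the sterol regulatory element to which SREBPs bind, were in 0 of the 27, in 1.12% of all promoters and in 1.03% of those of protein-coding genes. A match is a description of the letters and no evidence of binding. A share this low leaves few or no matches in 27 promoters, and only this form was searched. The 0 therefore does not show that these promoters lack sterol regulatory elements. The 170 bases before the start are shown for the called genes with an entry, 2 of synthesis and 2 of the other sub-groups, chosen after their values were seen. They are at chr19:67414975-67415144 (Mvd, minus strand), chr1:208444264-208444433 (Dhcr7, plus strand), chr5:72596474-72596643 (Abca1, minus strand) and chr1:241470741-241470910 (Lipa, minus strand). Each reads 5′ to 3′ along its gene, and capitals mark the CCAAT box, the GC box and CACGTG or their reverse complements.
Mvd: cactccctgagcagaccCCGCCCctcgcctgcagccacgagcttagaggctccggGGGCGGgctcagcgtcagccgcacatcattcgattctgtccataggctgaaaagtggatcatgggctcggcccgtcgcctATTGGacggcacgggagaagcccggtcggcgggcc
Dhcr7: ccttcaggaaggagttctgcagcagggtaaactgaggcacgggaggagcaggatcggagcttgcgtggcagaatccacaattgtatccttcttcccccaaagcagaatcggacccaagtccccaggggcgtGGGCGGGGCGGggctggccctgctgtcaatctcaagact
Abca1: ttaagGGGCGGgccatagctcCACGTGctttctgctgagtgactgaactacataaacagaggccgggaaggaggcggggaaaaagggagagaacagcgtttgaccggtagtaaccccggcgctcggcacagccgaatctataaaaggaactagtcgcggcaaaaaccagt
Lipa: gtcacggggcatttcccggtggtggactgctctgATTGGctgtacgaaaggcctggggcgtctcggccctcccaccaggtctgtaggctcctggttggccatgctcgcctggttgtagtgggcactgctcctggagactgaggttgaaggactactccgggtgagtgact

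Mvd, the gene that was higher, holds a reversed CCAAT box 31 bases before the start and GC boxes at 110 and 148 bases, and Dhcr7, which was lower, has overlapping GC boxes at 34 and 29 bases. Abca1 and Lipa, both lower, share none of these motifs within the stretch shown, since Abca1 has a GC box and CACGTG and Lipa a reversed CCAAT box. A GC box was thus present in Mvd, which was higher, and in Dhcr7 and Abca1, which were lower.

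Beyond the 33 genes, 49 other genes of cholesterol and lipoprotein metabolism were listed, of which 39 were tested. At an unadjusted p-value below 0.05, 7 were lower in diabetes, 1 was higher and 31 passed in neither direction, with a median log2 fold change of -0.039. Of all genes tested, 4.99% were lower and 2.47% higher at this threshold. Groups did not overlap in 8 of the 39 that were lower and 2 that were higher, against 8.42% and 4.56% of all genes. This list was also chosen with earlier results known. None of the 39 had an adjusted p-value below 0.05 in limma. Ces1d, a carboxylesterase that hydrolyses lipid esters, was the only one past the study's criterion. It measured 29.1, 18.2 and 42.0 FPKM in diabetes and 73.5, 92.5 and 76.8 FPKM in the controls, without overlap. Its log2 fold change was -1.52 (SE 0.28), with an adjusted p-value of 0.267.

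The others that were lower were Apoe, a lipoprotein ligand (34.4 ± 5.42 against 48.9 ± 5.07 FPKM, SD, n = 3 each, log2 fold change -0.51), and Stard5, a sterol-binding protein (-0.62). They also included Cyp27a1, a sterol hydroxylase (-0.35), Cav1, the coat protein of caveolae (-0.36), Acat1, the mitochondrial counterpart of Acat2 (-0.34), and Plin2, which coats lipid droplets (-0.26), the only one of the 8 whose groups overlapped. Their adjusted p-values in limma were 0.419 to 0.649. Apoe kept an unadjusted p-value below 0.05 in all 6 fits that left out a rat. Stard5, Cav1 and Acat1 kept it in only 3 of them, and Cyp27a1 and Plin2 in only 2. Vldlr, a lipoprotein receptor, was the only one that was higher. It measured 20.6 ± 0.896 FPKM in diabetes and 16.7 ± 2.75 FPKM in the controls (SD, n = 3 each), with a log2 fold change of 0.32 and an adjusted p-value of 0.649 in limma. Its unadjusted p-value was below 0.05 in only 1 of the 6 fits that left out a rat. Scarb1 and Vldlr, both receptors for lipoproteins, thus lay on opposite sides of 0.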

How the data were processed

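RNA of 6 rat testes was sequenced by paired-end RNA-Seq. The labels name both a poly(A) selection and fractions with and without poly(A), so which RNA entered the libraries is unclear. The authors checked reads with FastQC, compared them with rRNA using BWA, aligned them with STAR and used StringTie to assemble transcripts. The authors' own screen of transcripts used DESeq2. Deposited were FPKM per gene, as the authors calculated them. The genome build and the versions of these tools are not given in the sources used here. Groups followed the labels. Values were transformed to log2(FPKM + 0.1), and genes whose mean reached 0.5 FPKM entered a two-sided comparison in limma 3.58.1 under R 4.3.3 (lmFit, then eBayes with its mean-variance trend), adjusted after Benjamini and Hochberg. Exact permutation tests used scipy 1.17.1 in Python 3.11.15. The steps were tested on simulated data. The 33 genes, the marker lists and the other cholesterol genes were chosen with earlier results of these data known.

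Values by rat are given for genes with an unadjusted p-value below 0.05 or without overlap, for Srebf1, Srebf2, Scarb1, Soat1 and Lipe, and for the 3 most abundant genes. Of the other cholesterol genes, those with an unadjusted p-value below 0.05 are named. The alternatives tried were pseudocounts of 1 and 0.01, no filter or a mean of at least 1 FPKM, TPM, median-ratio scaling, eBayes without trend or robust, a block for the replicate number, symbols summed, protein-coding genes only, and leaving out each rat. Small RNA libraries were not analysed here.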

Additional observations from a re-analysis of the deposited data

How the results depend on the processing

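Over 559 refits of the 33 genes, no call turned its direction. In 533 of them the gene kept its side of an unadjusted p-value of 0.05, in 13 it lost it and in 13 it gained it. The sign changed in 25, all of them in 12 genes that were not past the threshold. Scarb1, Abca1 and Mvd were past this threshold under every alternative. The number past it was 5, and 4 to 7 under the alternatives that kept all rats. It was 3 to 6 when a rat was left out, with 3 without diabetic rat 2 or control rat 2. With all rats kept, Dhcr7 lost this threshold in limma without the eBayes trend (0.0563) and with the replicate block (0.0539). Lipa lost it with the block (0.0574). Ebp passed it with TPM (0.044), without the trend (0.042), with protein-coding genes only (0.028) and with symbols summed (0.0496). Msmo1 passed it without the trend (0.0455). The number of genes without overlap was 8, and 9 with TPM and with median-ratio scaling. Leaving out a rat can only keep or raise this number, which was then 10 to 13, with 13 without control rat 2. The pseudocount, the eBayes settings and the block cannot change it. A mean of at least 1 FPKM left 31 genes.

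Scarb1 was the 1 gene past the study's criterion with a pseudocount of 0.01, with TPM and without diabetic rat 1, diabetic rat 3 or control rat 3 (0 to 1 when a rat was left out). It was also the 1 gene with an adjusted p-value below 0.05 with a pseudocount of 1 (0.0467), a mean of at least 1 FPKM (0.0416), robust eBayes (0.0482), protein-coding genes only (0.0104) and symbols summed (0.0424). Without the filter it was 0.0788. The median of the SREBP regulators was -0.081 to -0.010 when a rat was left out. Under median-ratio scaling, which moved the median of all genes by 0.029, it was 0.014, and Fdft1 (0.0327) and Lipe (0.0268) passed an unadjusted p-value of 0.05.

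Whether the replicate numbers pair the rats could not be settled from the values. Same-numbered rats deviated together with weak correlations of 0.106, 0.015 and 0.098. Diabetic rats 1 and 3 correlated best with the control of the same number, but diabetic rat 2 with control rat 3 (0.032). With the replicate block, 4 genes passed an unadjusted p-value of 0.05 (Scarb1, Abca1, Mvd and Lipe), and the adjusted p-value of Scarb1 was 0.243. Genes with a level near 1 FPKM, such as Npc1 and Nsdhl, had the wide intervals given above, so that differences of the size seen for Abca1 or Lipa were not detectable there.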
